A study of Sus scrofa with 48 samples.

Results

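Genes that carry retinoids, make retinoic acid or bind it were described in pig perirenal adipose tissue (PRAT), the fat around the kidney, in relation to diet and genetic line. The set holds 5 genes, namely the retinol carriers RBP4 and RBP5, the enzyme ALDH1A1, and the nuclear receptors RARA and RARB. They were chosen on measured values, since the rise of RBP5 on the high-fat diet was already known in these pigs, so the diet differences of all 5 genes are given as a description with no test. The comparison of lines and the interaction of diet with line were not used in that choice and were tested. Probes were taken by the gene name that the array files give, whatever its case. This gave 11 probes for the 5 genes, of 60305 probe names on the array and 8959 genes with a symbol among the 38142 probes kept for testing, and 11 of the 11 passed the filter on low signals and were well above background on each of the 48 arrays.

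The pigs were Large White barrows aged 132 days, from 2 lines divergently selected on residual feed intake (RFI), the feed eaten beyond what growth and maintenance predict. Low-RFI pigs (RFIneg in the labels) eat less than predicted and high-RFI pigs (RFIpl) eat more. Within each line, 12 pigs ate a high-fat high-fiber diet (HF) and 12 a low-fat high-starch diet (LF), both with free access, which gave 4 groups of 12 pigs and 1 Cy3 one-colour array per pig. Fat, fiber and starch changed together between the diets and cannot be told apart, and each genotype was 1 selected line. The paper also reports a lower feed intake, final weight and share of perirenal fat in HF pigs. These cannot be told apart from the composition of the diet here. The RNA came from whole tissue, in which fewer cells of a type and less RNA per cell cannot be told apart.

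Retinol travels in blood bound to RBP4, which is made by liver and by adipocytes, and inside cells it is held by small binding proteins such as RBP5. Dehydrogenases turn retinol into retinaldehyde, and aldehyde dehydrogenases of the ALDH1A family, ALDH1A1 among them, turn that into retinoic acid. Retinoic acid binds the RAR receptors, which act on DNA as pairs with an RXR receptor, and adipose tissue is a known store of retinyl esters.

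The letters that were measured are shown for 6 probes, written 5′ to 3′, since they decide what each value can stand for. The RBP5 pair shows how far the readings of this gene are independent: the probes share 50 bases and differ in 1 of them, C27T, counted from 1 at the 5′ end of A_72_P455210 and marked by the capitals. The last 10 bases of O13617 are not printed. The RBP4 pair lies at separate places of that transcript, and the ALDH1A1 and RARA probes are those used for these genes throughout. No genome position was used, as the array files were read by probe and gene name alone.
RBP5 A_72_P455210: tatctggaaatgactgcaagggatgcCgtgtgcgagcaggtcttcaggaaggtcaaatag
RBP5 O13617: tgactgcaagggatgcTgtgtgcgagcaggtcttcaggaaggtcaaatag
RBP4 A_72_P531116: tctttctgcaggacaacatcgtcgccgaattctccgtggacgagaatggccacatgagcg
RBP4 A_72_P146486: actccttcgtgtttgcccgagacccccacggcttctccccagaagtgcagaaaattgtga
ALDH1A1 A_72_P052071: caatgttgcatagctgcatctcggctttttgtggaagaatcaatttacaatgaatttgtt
RARA O9489: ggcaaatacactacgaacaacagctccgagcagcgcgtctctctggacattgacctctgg

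A level is the log2 median signal of a spot minus the median over all non-control probes of its array, so 0 is the middle of the array and 1 unit is a doubling. Each gene is given by its brightest probe over all arrays. A probe was called at a raw p under 0.01, a fold over 1.1 and a Benjamini-Hochberg (BH) adjusted p under 0.08 over all 38142 probes in limma. In the series as a whole, 24.5% of probes were called by diet, 3.58% by line and 0% for the interaction, where 825 probes had an unadjusted p under 0.05 and a two-way ANOVA also called 0. Of the diet calls, 36.6% were higher on HF, against 50.5% when the background-subtracted signal was scaled at the 75th percentile and 51.7% after normexp and quantile normalization. The array median signal ran from 115 to 178 over a local background of 23 to 33, and every one of the 6 slides held 2 arrays of each group. PRAT had the adipocyte transcripts ADIPOQ and FABP4 at mean levels of 10.18 and 10.80. In 14 libraries the liver transcript albumin (ALB) stood above a level of 4, with none between 3.29 and 4.73. These were 5 HF low-RFI, 5 LF low-RFI and 4 LF high-RFI pigs, against 0 HF high-RFI pigs, so results touched by this are also given without them.

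RBP5 had the largest spread of the 5 genes and was higher on HF. Its level was 2.62 in the lowest, 4.57 in the median and 5.67 in the highest HF low-RFI pig. HF high-RFI pigs ran from 1.17 over a median of 4.52 to 5.86. In LF low-RFI pigs the lowest, median and highest levels were 0.70, 2.90 and 4.39, and in LF high-RFI pigs they were 1.51, 3.8 and 4.67. The HF and LF ranges thus overlapped at the bottom and separated at the top, since 10 of 24 HF pigs lay above the highest LF pig and 21 of 24 above the LF median, while 2 of 24 LF pigs lay above the HF median. In the HF high-RFI group, 2 pigs at 1.17 and 1.23 stood below the next pig at 3.53. The mean was 4.3 ± 1.20 on HF and 3.23 ± 1.04 on LF (SD, n = 24), a difference of 1.07 with a standard error of 0.31, or 2.1-fold.

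Ordered by group mean, RBP5 was 4.49 ± 0.83 in HF low-RFI, 4.11 ± 1.5 in HF high-RFI, 3.63 ± 0.95 in LF high-RFI and 2.82 ± 0.99 in LF low-RFI pigs (SD, n = 12), and each neighbouring pair in this order differed by less than its SDs. The low-RFI line thus held both ends of the order. The diet difference was 1.66 (standard error 0.43) in the low-RFI line and 0.48 (standard error 0.43) in the high-RFI line. The test of that contrast gave an interaction of 1.18 (standard error 0.61), with a raw p of 0.0600 and a BH adjusted p of 1.0 in limma, which is no call. The interaction was 1.45 (p = 0.0160) with the albumin level as a covariate and 1.82 (p = 0.0192) without the 14 albumin-high libraries, with a BH adjusted p of 1.0 in limma in both. It was above 0 within 6 of 6 slides, from 0.10 to 3.74, the highest on the slide with HF high-RFI replicate 9. Replicates 8 and 9 of that group, at RBP5 levels of 1.17 and 1.23, stayed in both albumin settings. Leaving out either pig alone lowered the interaction, to 0.91 (limma p = 0.115) without replicate 8 and to 0.92 (limma p = 0.114) without replicate 9. The line difference of RBP5 was -0.21 (standard error 0.31, limma p = 0.490, BH adjusted p = 0.851), so the lines were not told apart.

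The other RBP5 probes gave diet differences of 1.06 and 1.02. Over the 48 pigs, after each group mean was removed, the 3 probes correlated with an r of 0.99 for each pair. The overlapping pair printed above differed by 0.33 ± 0.13 on the log2 scale (mean and SD over 48 pigs), from -0.17 to 0.46 in single pigs. Between the lowest and the highest pig RBP5 spanned 35.7-fold, and its residual SD of 1.1 within groups was larger than that of 99.4% of probes tested. The diet difference was above 0 on 6 of 6 slides, from 0.47 to 2.23, and was 0.70 and 1.45 on the 2 scan days. These are parts of the same 48 arrays on which the rise was already known, so they describe it and do not test it.

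**Figure D1:**
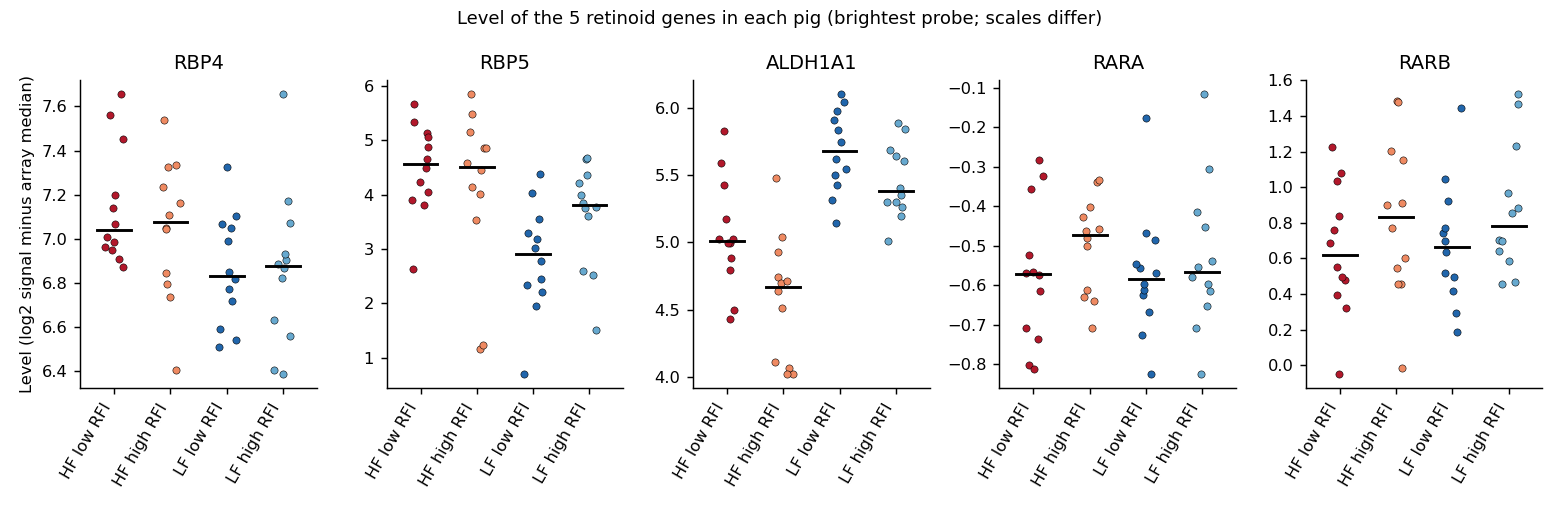
Level of RBP4, RBP5, ALDH1A1, RARA and RARB in each of 48 pigs by diet and line (vertical axes: log2 signal minus the array median, with a different scale in each panel; points: pigs, 12 per group; black lines: medians). RBP5 reaches 5.86 on HF and 4.67 on LF, 16 of 24 HF pigs lie below every LF pig for ALDH1A1, and the groups overlap throughout for RBP4, RARA and RARB.

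RBP4, the carrier that takes retinol through the blood, was slightly higher on HF, with groups that overlapped throughout. Its level had a lowest, median and highest value of 6.87, 7.04 and 7.66 in HF low-RFI and of 6.40, 7.08 and 7.54 in HF high-RFI pigs. On LF these values were 6.51, 6.83 and 7.33 in the low-RFI line and 6.38, 6.88 and 7.66 in the high-RFI line. Of the HF pigs, 20 of 24 lay above the LF median and 1 above the highest LF pig, while 6 of 24 LF pigs lay above the HF median. The means were 7.10 ± 0.29 on HF and 6.86 ± 0.30 on LF (SD, n = 24), which is a difference of 0.24 (standard error 0.08) or 1.18-fold, smaller than the SD within either diet.

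The RBP4 difference between diets was 0.29 in the low-RFI and 0.19 in the high-RFI line, each with a standard error of 0.12, and the interaction was not called (limma p = 0.572). Ordered by mean, HF low-RFI pigs stood at 7.15, HF high-RFI pigs at 7.05 and both LF groups at 6.86, with neighbours closer than their SDs of 0.25 to 0.35. The lines differed by 0.05 (standard error 0.08, limma p = 0.546, BH adjusted p = 0.877). The other 3 probes gave diet differences of 0.16, 0.25 and 0.27, and the 4 probes moved together over pigs with r from 0.92 to 0.97 within groups. Within slides the diet difference ran from -0.12 to 0.54 and was above 0 on 4 of 6.

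ALDH1A1, which makes retinoic acid from retinaldehyde, was lower on HF and higher in the low-RFI line. Its lowest, median and highest levels were 4.43, 5.01 and 5.82 in HF low-RFI pigs and 4.02, 4.67 and 5.48 in HF high-RFI pigs. In LF pigs they were 5.15, 5.68 and 6.10 in the low-RFI line and 5.01, 5.38 and 5.89 in the high-RFI line. The diets were the most separate of the 5 genes here, with 16 of 24 HF pigs below the lowest LF pig and 24 of 24 LF pigs above the HF median. The mean was 4.82 ± 0.49 on HF and 5.57 ± 0.30 on LF (SD, n = 24), so that ALDH1A1 fell by 0.75 on the log2 scale (standard error 0.10; 1.68-fold lower). The fall was 0.62 in the low-RFI line and 0.87 in the high-RFI line, each with a standard error of 0.15, and the interaction was not called (limma p = 0.232). All 6 slides had a diet difference below 0, from -1.11 to -0.40.

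The line difference of ALDH1A1 was the 1 call among 5 genes, or 1 of 11 probes, beside a background of 3.29% of the 8959 genes by their brightest probe, and a count of 1 is too small to read against it. Low-RFI pigs averaged 5.37 ± 0.47 and high-RFI pigs 5.02 ± 0.58 (SD, n = 24), a difference of 0.35 (standard error 0.10, limma p = 0.00153, BH adjusted p = 0.0522). The ranges overlapped widely, with 4 low-RFI pigs above the highest high-RFI pig and 4 high-RFI pigs below the lowest low-RFI pig. The difference was 0.47 on HF (limma p = 0.00221) and 0.22 on LF (limma p = 0.135). It was above 0 on 5 of 6 slides, from -0.01 to 0.71, and was 0.26 and 0.44 on the scan days. By group mean the order was LF low-RFI at 5.68, LF high-RFI at 5.46, HF low-RFI at 5.06 and HF high-RFI at 4.58, where neighbouring means differed by 0.22 to 0.47, against group SDs of 0.27 to 0.46.

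The ALDH1A1 call depended on few libraries. It was made in 42 of 48 fits that each left out 1 pig and was lost, with BH adjusted p from 0.0819 to 0.0849 in limma, without HF low-RFI replicate 3 or 12, HF high-RFI replicate 1, 4 or 6, or LF low-RFI replicate 12. Without the 14 albumin-high libraries the difference was 0.29 (standard error 0.12, limma p = 0.0225, BH adjusted p = 0.359), and with the albumin level as a covariate it was 0.35 (BH adjusted p = 0.0791 in limma). The second probe, O9202, correlated with the first by r = 0.37 within groups. It gave a diet difference of -0.44 and a line difference of 0.16 (limma p = 0.0854, BH adjusted p = 0.489).

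RARA and RARB, the retinoic acid receptors with a named probe, were not called by line, and their diet differences lay well inside the SD within groups. RARA had lowest, median and highest levels of -0.81, -0.57 and -0.28 in HF low-RFI, -0.71, -0.47 and -0.33 in HF high-RFI, -0.82, -0.58 and -0.18 in LF low-RFI, and -0.83, -0.57 and -0.11 in LF high-RFI pigs. The 4 ranges lay over each other, with group means from -0.57 to -0.50 and a residual SD of 0.16, the smallest of the 5 genes. RARA differed by 0.01 between diets (standard error 0.05) and by -0.06 between lines (standard error 0.05, limma p = 0.239, BH adjusted p = 0.706), and its interaction had a p of 0.745 in limma. A probe outside the set, A_72_P117606, is named in the files by an accession of RARA and shares 41 bases with O9489. Its line difference was -0.17 (standard error 0.06, limma p = 0.0113, BH adjusted p = 0.180) and was not called either.

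RARB ran from -0.05 over a median of 0.62 to 1.23 in HF low-RFI and from -0.01 over 0.84 to 1.49 in HF high-RFI pigs. In LF pigs the values were 0.19, 0.67 and 1.44 in the low-RFI and 0.46, 0.78 and 1.52 in the high-RFI line. No group stood apart, and the group means from 0.65 to 0.87 were closer than the SDs of 0.34 to 0.45. RARB differed by -0.04 between diets (standard error 0.11) and by -0.19 between lines (standard error 0.11, limma p = 0.0903, BH adjusted p = 0.499), below 0 on 5 of 6 slides. The interaction had a p of 0.947 in limma, and 0 of the 5 genes were called for it in limma or in the two-way ANOVA, with 0.0600 for RBP5 as the lowest raw p.

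**Figure D2:**
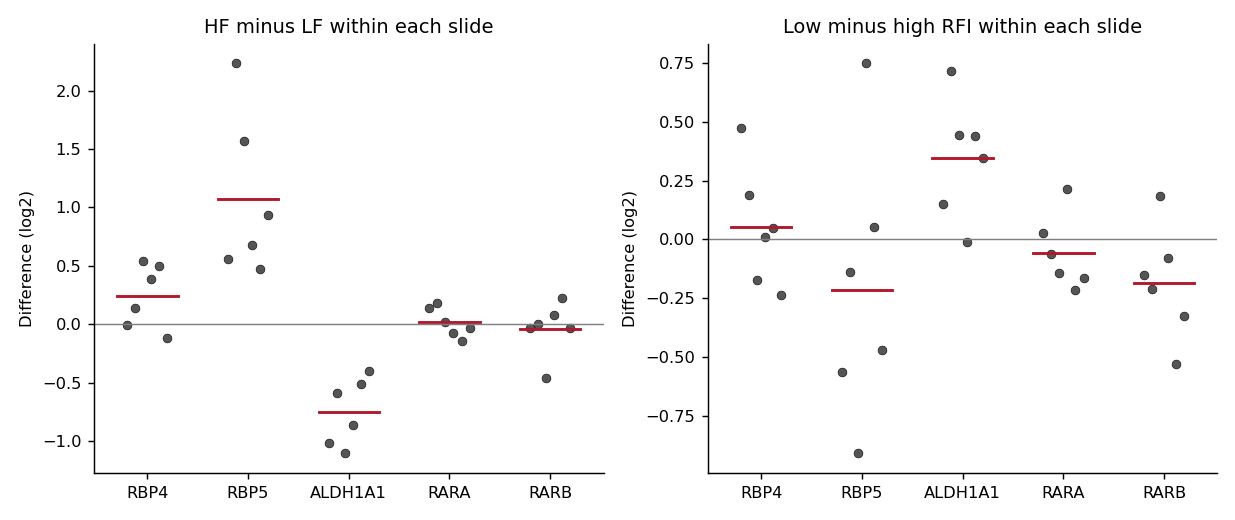
Difference of means within each of the 6 slides for the 5 genes (left: HF minus LF; right: low minus high RFI; log2 scale; points: slides; red lines: means of the 6 slides). For diet, as a description with no test, RBP5 is above 0 and ALDH1A1 below 0 on all 6 slides. For line, ALDH1A1 is above 0 on 5 of 6 slides.

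The remaining retinoid genes were taken from lists of carriers, enzymes, receptors with their cofactors, and targets. Of 53 genes listed, 33 had a tested probe. On HF, 3 of the 33 were called higher and 6 lower, where 6.24% of all genes were called higher and 19.7% lower, so the share that moved was near that of all genes. Their median diet difference was -0.07, against -0.05 over all genes. After normexp and quantile normalization, 5 were called higher and 4 lower. By line 1 of the 33 was called. For the interaction 0 were called in limma and in the ANOVA, and 0 had an unadjusted p under 0.05.

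Among the carriers and uptake genes, 8 were tested and 0 were called higher on HF by their brightest probe in limma. RBP2, an intracellular retinol carrier at a mean level of -0.41, fell by 0.62 (standard error 0.14, BH adjusted p = 0.000961 in limma). No RBP2 probe was well above background on more than 44 arrays, and the lowest pig stood at -1.87 by the brightest one. The fall of RBP2 thus rests on dim signals, in which folds are compressed. RBP5 and RBP2, both intracellular retinol carriers, had diet differences of opposite sign in the same samples. The rise of RBP5 was known when the set was chosen, and the contrast of these 2 carriers was not tested. RBP7, another carrier of this family, was not called by its brightest probe, with a difference of 0.09, below the fold limit. Its other 3 probes rose by 0.41 to 0.68 and were each called (BH adjusted p from 0.00488 to 0.0118 in limma). The RBP7 probes thus disagreed in size and in call, though not in direction. CRABP1, which binds retinoic acid in cells, had -0.14 (BH adjusted p = 0.00627 in limma), also below the fold limit. STRA6, the membrane receptor for RBP4, had -0.01, although 1 of its 3 probes fell by 0.38. TTR, which travels with RBP4 in blood, had -1.53 (standard error 0.65, BH adjusted p = 0.0667 in limma) and was not called on its raw p of 0.0226. TTR belongs with albumin to the liver list, and with the albumin level as a covariate it had -0.38 (standard error 0.14, BH adjusted p = 0.0320 in limma) and was called.

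Of 14 enzymes tested, 2 rose and 2 fell on HF. BCO1, which cleaves carotene to retinaldehyde and stood at a mean level of -0.20, rose by 0.38 (standard error 0.14, BH adjusted p = 0.0350 in limma). ALDH1A3, a relative of ALDH1A1 with the same reaction, rose by 0.34 (standard error 0.13, BH adjusted p = 0.0331 in limma). In each of these genes 1 of 2 probes was called. Both calls were lost without the 14 albumin-high libraries. RDH11, a retinaldehyde reductase, fell by 0.46 (standard error 0.07, BH adjusted p = 5.85e-06 in limma) and did so with 4 of 4 probes. ADH5, an alcohol dehydrogenase, fell by 0.19 (standard error 0.04, BH adjusted p = 0.000218 in limma), which was not a call after normexp and quantile normalization. DHRS3, which reduces retinaldehyde to retinol, had -0.19 (BH adjusted p = 0.204 in limma). DHRS4, a dehydrogenase that acts on retinoids among other carbonyls, was the 1 gene called by line, at 0.33 higher in low-RFI pigs (standard error 0.09, limma p = 0.000772, BH adjusted p = 0.0329). Its 4 probes gave 0.33 to 0.41 and were all called, the same direction as ALDH1A1. Without the albumin-high libraries DHRS4 had 0.31 (BH adjusted p = 0.128 in limma) and was not called.

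Among 9 receptors and cofactors, RXRG rose and RXRA fell. The difference of RXRG was 0.44 (standard error 0.11, BH adjusted p = 0.00267 in limma), with 2 of 3 probes called. RXRA had -0.18 (standard error 0.05, BH adjusted p = 0.00692 in limma) on its single tested probe. RXRB, the remaining partner receptor, had 0.02 and was not called, although 1 of its 3 probes fell by 0.16. The RXR partners thus moved in different directions by diet, while RARA and RARB differed by 0.01 and -0.04. The paper reports by qPCR that RXRA fell and RXRG rose on HF in PRAT. For RARA it reports a response to diet of opposite direction in PRAT and subcutaneous fat. The RARA value here is from a dim probe, at a mean level of -0.54. Of the known targets of retinoic acid, RARRES2 and TGM2 were tested and neither was called in limma or the ANOVA, with 1 unadjusted p under 0.05 by diet, at 0.0439 for TGM2. Genes of these lists without a tested probe, among them RARG, CRABP2, RDH10, ALDH1A2, CYP26A1 and CYP26B1, were not analysed here.

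**Figure D3:**
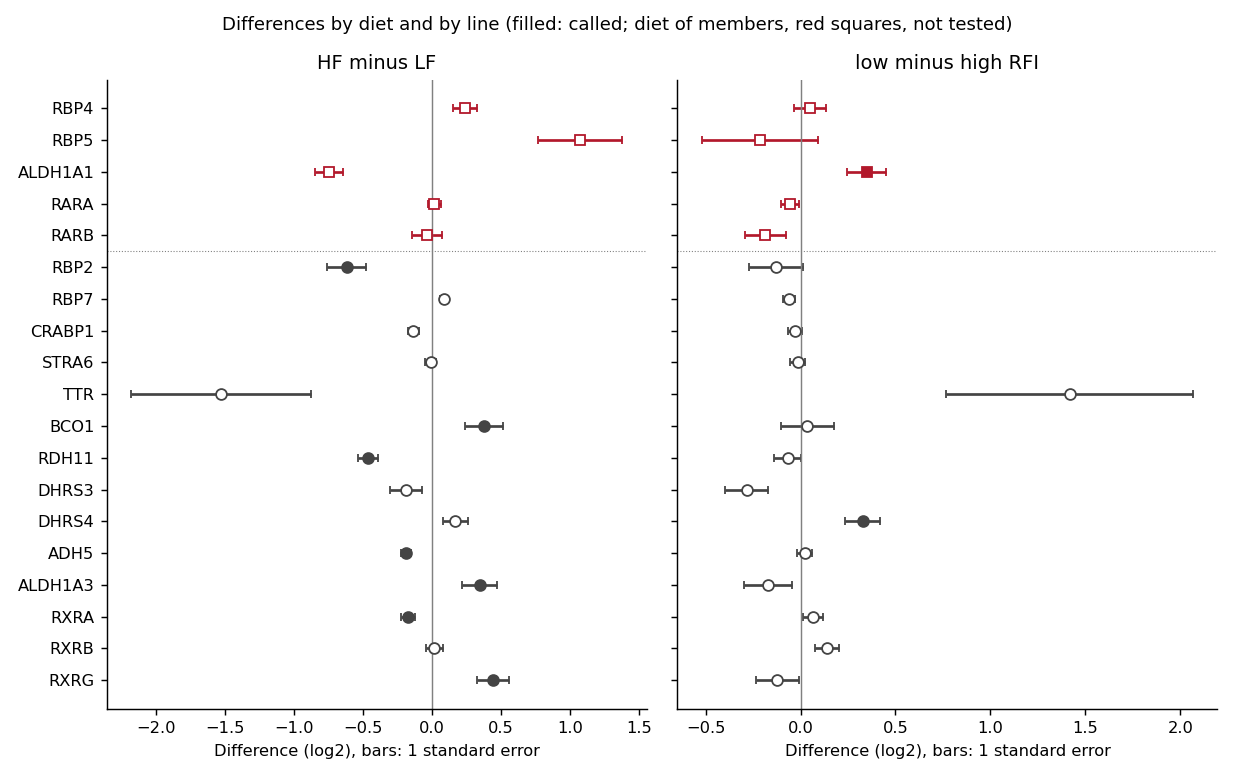
Differences by diet (left) and by line (right) for the 5 genes (red squares, above the dotted line) and 14 other retinoid genes (grey circles), on the log2 scale with bars of 1 standard error. Filled symbols were called; the diet differences of the red genes carry no test. RBP5, whose rise on HF was known when the set was chosen, has a diet difference of 1.07. ALDH1A1 and DHRS4 are the filled symbols for line.

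Markers of other cells were set beside the 5 genes. The mean level of 7 macrophage markers ran from 1.69 over a median of 3.0 to 4.09 on HF and from 1.36 over 2.49 to 3.77 on LF. Of these 7 genes 5 were called higher on HF, by 0.48 for CSF1R to 0.81 for C1QC, and 0 by line, where 0 had an unadjusted p under 0.05. RARB followed this mean from pig to pig within the groups, with r = 0.63 (permutation p = 2e-05, BH adjusted p = 0.0004) and rho = 0.64 (permutation p = 1e-05, the smallest that 100000 permutations can give), over 48 pigs and 20 relations computed. The value was 0.58 without the 2 pigs farthest from the median, and 0.69 and 0.60 on the scan days. RARA gave r = 0.34 (permutation p = 0.0152, BH adjusted p = 0.101) and rho = 0.43 (BH adjusted p = 0.0266), with 0.05 and 0.61 on the scan days, so this relation did not hold on both. The part of macrophage RNA in the receptor levels was not tested.

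Albumin varied from -1.65 to 9.11 over the pigs and was lowest in the HF high-RFI group, with a median of 0.21 against 1.62 to 2.06 in the other groups. RBP5 was lower where albumin was higher, with r = -0.38 within groups (permutation p = 0.00288, BH adjusted p = 0.0288) and rho = -0.40 (permutation p = 0.00464, BH adjusted p = 0.0309). The value was -0.41 without the 2 farthest pigs, and -0.56 and -0.22 on the scan days. Pooled over groups, RBP5 had a median of 2.96 in the 14 albumin-high libraries, with a range of 1.51 to 5.13. In the other 34 it was 4.18, with a range of 0.70 to 5.86. Of the 14 libraries 9 were from LF and 5 from HF pigs, so these medians do not separate albumin from diet. The RBP5 diet difference was 0.86 (standard error 0.30) with albumin as a covariate and 0.88 (standard error 0.37) without the albumin-high libraries. RBP4, itself a liver product, gave r = 0.01 with albumin (permutation p = 0.974). This r was -0.30 and 0.25 on the scan days and -0.20 without the 2 farthest pigs. ALDH1A1, RARA and RARB gave r from -0.06 to 0.00 with albumin over all pigs. Among 4 liver markers 0 were called by diet or line in limma or the ANOVA, although TTR and SERPINA1 had an unadjusted p under 0.05 in both contrasts. The part of liver transcripts in the RBP5 difference was not tested beyond these values.

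**Figure D4:**
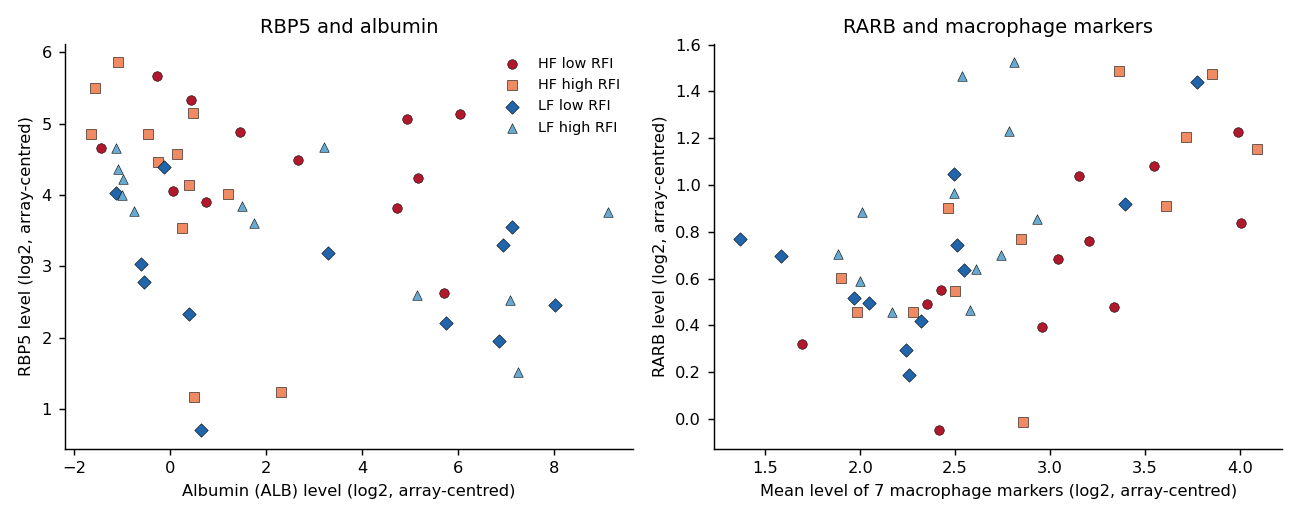
Left, RBP5 level against albumin level, and right, RARB level against the mean level of 7 macrophage markers, in 48 pigs (all axes log2, centred on the array median; symbols mark the 4 groups). The 14 libraries above an albumin level of 4 have a median RBP5 of 2.96 against 4.18 in the others, pooled over groups and not adjusted for diet. RARB is higher where the macrophage mean is higher.

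Between the 5 genes themselves, 10 relations were computed over the 48 pigs within groups, and none had a BH adjusted p under 0.05. The lowest r was RBP5 with ALDH1A1, at r = -0.32 (permutation p = 0.0437, BH adjusted p = 0.175), which was -0.02 and -0.56 on the scan days. Genes with the most alike pattern over pigs are given as a description, by r to the brightest probe within groups over 48 pigs that share arrays and scaling. For RBP4 these were UCP2 (0.61), S100A11 (0.60) and C1H18ORF25 (0.56), and for RBP5 they were NASP (0.58), HNRNPA1 (0.54) and ATP6V0A4 (0.54). ALDH1A1 was closest to GLO1 (0.77), MGST1 (0.77) and PSAT1 (0.76), which are enzymes of methylglyoxal, glutathione and serine metabolism. RARA was closest to ZBTB24 (0.59), PIP5K1C (0.58) and ITGA5 (0.58). RARB was closest to CD209 (0.75), a lectin of macrophages and dendritic cells, ST3GAL4 (0.74) and BIN1 (0.74). CD209 differed by 1.01 between diets, ST3GAL4 by 0.25 and BIN1 by -0.01, beside -0.04 for RARB. The genes most like RARB within groups thus did not all share its diet difference.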

How the data were processed

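PRAT of 48 pigs was measured on 48 one-colour arrays. The deposited intensity values are scanner brightness per spot, with flags of 0 or 1, from Agilent Feature Extraction, per the file headers. The authors made the deposited log2 values by filtering spots, taking log2 of Cy3 and centring each array on its median in R 2.10.0, as the submitters' notes and methods state. Names of that table matched its values in 2 of 38142 cases, so its entries were matched to spots by value, within 5e-09, and gave the list of tested probes. Levels were computed from the scanner files as log2 median signal, not background-subtracted, minus the median of non-control probes, which compresses folds of dim probes. On every array 34688 of the tested probes were well above background, no tested spot was saturated, and the number of arrays limits the precision.

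Groups came from the sample titles, which name separate pigs. Diet, line and interaction were fitted over all 48 arrays in limma 3.58.1 with R 4.3.3 (lmFit, eBayes), with thresholds from the methods. Correlations used 100000 permutations of pigs within groups, two-sided, adjusted over 20 relations. Python 3.11.15 with numpy 2.4.6, pandas 2.3.3, scipy 1.17.1 and matplotlib 3.10.9 was used, and the fit was tested on simulated data.

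Members and lists were chosen with earlier results of these data known. The rule for named genes took all probes of the 5 genes, pathway genes called by diet or line, a fixed set of pathway genes whether called or not, the 3 genes most like each member, and markers by list. Marker lists covered liver, kidney, adrenal, skeletal muscle, mesothelium, fibroblasts, endothelium, lymphocytes (T and NK, B and plasma), macrophages and adipocytes. Alternatives were other scalings (kept probes, the 75th percentile of the processed signal, normexp with an offset of 50 and quantile), other filters, the mean of a gene's probes, a two-way ANOVA, a block for replicate number, slide or day of scanning, and a BH limit of 0.05. The albumin settings and leaving out each pig were chosen after seeing the data. Other tissues were not analysed here. Values of a few pathway genes are not reported here.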

Additional observations from a re-analysis of the deposited data

How the results depend on the processing

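The count of the 5 genes called by line was 1 and became 0 without the albumin-high libraries and 0 with a BH limit of 0.05 alone. The count of other retinoid genes called by line was 1 and became 0 without the albumin-high libraries, where line calls over all probes were 550 against 1367. No called gene changed direction. Differences near 0 crossed it, with a diet difference of -0.04 to 0.05 for RARB, -0.00 to 0.05 for RARA, -0.16 to 0.03 for STRA6 and -0.03 to 0.06 for RXRB, and an interaction of -0.05 to 0.10 for RARA and -0.01 to 0.20 for RARB, as did the line differences of STRA6, BCO1 and ADH5, none beyond 0.06. Other retinoid genes called by diet numbered 7 to 12 over the alternatives against 9, and all diet calls 8601 to 11710 against 9337. BCO1 lost its diet call after normexp and quantile normalization, in the two-way ANOVA, with slide or replicate as a block, with the mean of probes and without the albumin-high libraries. ALDH1A3 lost it in the ANOVA and in both albumin settings. RBP7 gained a call after normexp and quantile normalization, with the mean of its probes and at the BH limit of 0.05. With the replicate block, line calls were 1830 and diet calls 10149, the ALDH1A1 line difference had a BH adjusted p of 0.0341 in limma, and the RBP5 interaction a raw p of 0.0438. Pigs with the same number, which also shared a slide, correlated with a median r of 0.12 over 72 pairs, 38 of them over 0.1. For pigs with different numbers the median r was -0.01 over 792 pairs, 208 of them over 0.1. Since the same number also meant the same slide, these values do not show whether the numbers are pairs. The main fit did not take them as pairs. The causes were not tested. Leaving out 1 pig gave an ALDH1A1 line difference of 0.31 to 0.39 and an RBP5 interaction p of 0.0260 to 0.115. The number of arrays limits the precision, and every probe of the 5 genes was well above background on each array. The compression of folds in dim probes still applies to those at low levels, among them RARA at a mean level of -0.54.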

Other observations

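Of the adipocyte markers, CIDEC (-0.24) and LEP (-0.94) were called lower on HF and the other 4 of 6 were not called. AQP2 was the kidney marker with a tested probe and was lower on HF by 0.63 on the log2 scale. Among tested markers of skeletal muscle, adrenal, mesothelium, fibroblasts, endothelium and lymphocytes, 0 of 26 were called by diet or by line in limma or the two-way ANOVA, with 6 by diet and 2 by line at an unadjusted p under 0.05.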
